A study of Homo sapiens with 18 samples.

Results

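The lysosome is the acidic compartment in which cells break down proteins, lipids, glycans and nucleic acids. The genes described here are 48 human genes for its enzymes, membrane proteins and proton pump, together with the MiT/TFE transcription factors, in HEK-293E cells, a human embryonic kidney line. They were chosen by name, and all 48 were found by symbol among 60623 rows of the gene table, 1 row each. By role they were 3 MiT/TFE factors, 7 membrane or lipid transport proteins, 8 proteases, 15 other enzymes, activators and enzyme cofactors, and 15 subunits or accessory proteins of the V-ATPase. RNA sequencing was done on 18 libraries in 6 groups of 3. Cells starved overnight in DMEM with 0.1% serum and treated with Torin1, the same cells fed for 1 h or 4 h with Torin1, and the 3 matching groups without Torin1 (starved, fed 1 h, fed 4 h) were compared, and feeding meant a return to high-glucose DMEM with 10% serum. All groups thus shared the overnight starvation. Torin1 inhibits the kinase mTOR, and neither its dose nor how long it was given is in the sources used. The question asked was how gene expression responded to feeding when Torin1 was present or absent.

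When nutrients are plentiful, mTOR complex 1 at the lysosomal surface phosphorylates TFEB and TFE3, which keeps these factors in the cytoplasm bound to 14-3-3 proteins. When mTOR is inhibited they enter the nucleus and bind E-box-like elements in promoters of many lysosomal and autophagy genes, the CLEAR network. The V-ATPase acidifies the lumen, where the hydrolases are active, and it also takes part in amino acid sensing by mTOR complex 1. Transcript levels, which are what was measured here, say nothing of where the factors were or of protein amounts.

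Library totals ranged from 10510689 to 13690035 counts, and levels are given as CPM, that is counts scaled to a common library total with TMM factors. A count of 0 in a library allows up to 0.219 to 0.285 CPM, reckoned on library totals without TMM factors, which covers counting error only. The labels do not say whether the 3 libraries of a group came from separate cultures, and the p-values therefore cover only the spread among these libraries, which may be technical. Of 16414 genes with enough counts to be tested, all 48 were among them. All 10 markers of HEK293 cells were detected, but their level was not the same with and without Torin1. Their sum was 1294 to 1626 CPM in libraries with Torin1 and 822.6 to 1077 CPM in those without, with VIM the highest. In starved cells 7 of the 10 were higher with Torin1 and 2 lower (edgeR adjusted p under 0.05), where 33.9% and 29.6% of all genes tested were. Summed over 10 macrophage markers the level was 0.240 to 0.924 CPM in libraries with Torin1 and 0.437 to 3.20 CPM in those without, and of these markers only CD14 had enough counts to be tested. The sum over 7 fibroblast markers was 16.45 to 38.5 CPM with Torin1 and 8.83 to 44.65 CPM without, with COL1A1 the highest. In 3 libraries, 4 h fed Torin1 library 2, starved library 1 and 1 h fed library 2, this sum was 38.5, 44.65 and 30.5 CPM, against at most 19.65 CPM in the other 15, and COL1A2 had 73, 71 and 56 counts there and 0 to 8 elsewhere. Over 6 endothelial markers the sum was 0.480 to 2.13 and 0.642 to 2.815 CPM. Without those 3 libraries, a fit chosen after seeing the data, 15 of the 48 genes were higher and 24 lower with Torin1 in starved cells, 16 and 24 in 1 h fed cells, and 15 and 16 in 4 h fed cells, close to the counts over all libraries given next. Reads from genes that share exonic bases cannot be told apart without knowing whether counting used strand, which the sources used do not give, and 22 of the 48 genes have such a neighbour in GENCODE 29.

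Torin1 changed most of the 48 genes, and in both directions. In starved cells 17 were higher with Torin1 and 23 lower (edgeR quasi-likelihood test, adjusted p under 0.05), where 33.9% of all genes tested were called higher and 29.6% lower. In 1 h fed cells 17 were higher and 24 lower, against 33.2% and 29.9% of all genes, and in 4 h fed cells 15 were higher and 17 lower, against 27.4% and 28.6%. With TMM scaling, the share of the 48 called higher was close to this background in each state, and the share called lower was above it. With total-count scaling the split was 18 higher and 18 lower in starved cells and 17 and 22 in 1 h fed cells. In 4 h fed cells it was 18 and 12. Shares over all genes under that scaling are not given here. These 3 comparisons share no library. In all 3 feeding states 14 genes were called higher with Torin1 and 16 lower, where 18.8% and 19.6% of all genes tested were. No gene was called in opposite directions in 2 states, 12 were called in some states only, and 6 in none (TFEB, LAMP2, MCOLN1, CTSL, PSAP and ATP6AP2). Of these 6, LAMP2, MCOLN1, CTSL and PSAP were called in at least 1 state under at least 1 alternative, and TFEB and ATP6AP2 under none. The median log2 fold change over the 48 genes was −0.21 in starved, −0.23 in 1 h fed and −0.13 in 4 h fed cells, beside 0.09, 0.06 and 0.02 over all genes tested. All 14 genes called higher in every state were enzymes, enzyme cofactors, or membrane and lipid transport genes, and 10 of the 16 called lower were V-ATPase genes.

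**Figure D1:**
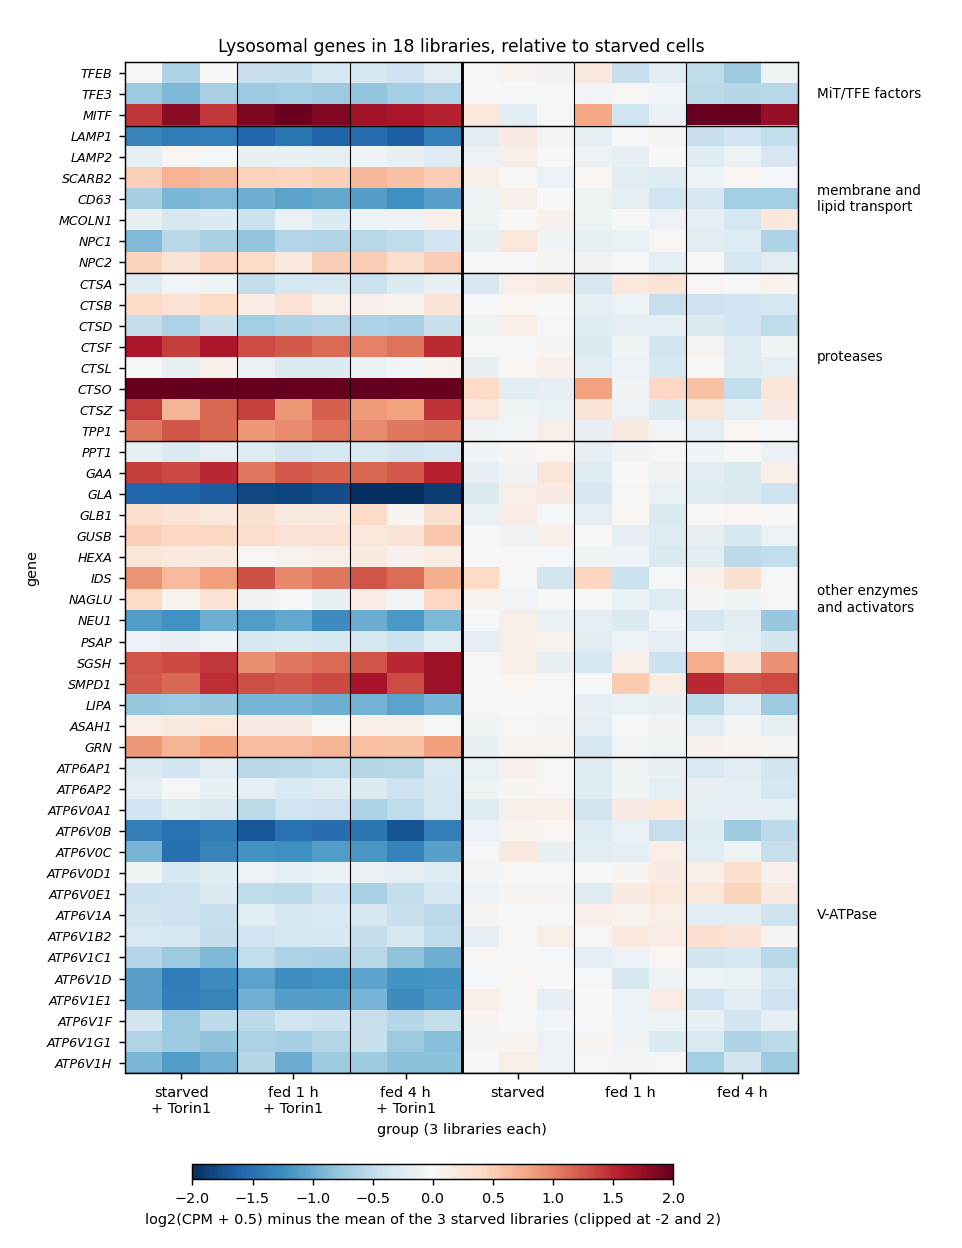
Level of the 48 genes (rows, by role) in 18 libraries (columns, libraries with Torin1 on the left), as log2(CPM + 0.5) minus the mean of the 3 starved libraries, with red for higher and blue for lower. The V-ATPase rows are mostly blue with Torin1, while CTSO, CTSF, GAA and SGSH are red.

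Promoter windows of these genes are shown because the MiT/TFE factors bind E-box-like sequences. RefSeq windows (GRCh38.p14, 250 bases before to 50 after a gene's start) were at hand for 35 of the 48 genes. The palindrome CACGTG, which reads the same on both strands, was found in 11 of these 35 (31.4%), against 8.78% of 27305 genes with such a window, and the longer form TCACGTGA, which contains CACGTG, in 6 of 35 (17.1%), against 1.18%. A match is a description of letters and not a binding site. In the stretches below, CACGTG is in capitals, and each is read 5′ to 3′ on the strand of its gene: GAA (chr17:80101490-80101570, plus strand), LAMP1 (chr13:113297032-113297244, plus), MCOLN1 (chr19:7522568-7522629, plus), ATP6V0B (chr1:43974888-43974941, plus), CTSF (chr11:66568637-66568744, minus) and NEU1 (chr6:31862927-31862962, minus).
GAA: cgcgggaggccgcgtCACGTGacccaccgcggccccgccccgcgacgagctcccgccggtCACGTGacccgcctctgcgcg
LAMP1: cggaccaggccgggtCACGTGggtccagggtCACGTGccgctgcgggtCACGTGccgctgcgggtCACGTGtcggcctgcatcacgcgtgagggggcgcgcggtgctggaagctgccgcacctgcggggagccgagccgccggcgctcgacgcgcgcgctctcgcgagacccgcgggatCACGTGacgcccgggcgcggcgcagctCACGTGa
MCOLN1: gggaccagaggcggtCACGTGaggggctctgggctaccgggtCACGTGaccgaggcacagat
ATP6V0B: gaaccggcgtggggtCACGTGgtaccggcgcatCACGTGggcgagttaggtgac
CTSF: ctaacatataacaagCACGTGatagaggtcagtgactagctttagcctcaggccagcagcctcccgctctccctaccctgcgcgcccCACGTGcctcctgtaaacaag
NEU1: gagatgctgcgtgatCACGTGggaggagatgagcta
The other genes with a match were ATP6V0D1, ATP6V1G1, CD63, CTSA and CTSD. Of the 11 genes, GAA and CTSF were called higher with Torin1 in every feeding state, and LAMP1, CD63, ATP6V0B, ATP6V0D1 and NEU1 lower in every state. By the same rule, among all 48 genes, with or without a match, 14 were called higher and 16 lower. Of all genes tested, 18.8% and 19.6% were. CTSA, CTSD and ATP6V1G1 were called lower in 2 states only, and MCOLN1 was called in none. Whether a match went with a direction was not tested. LAMP1, with 6 copies in its window, had the largest fall among the membrane genes, but GLA, with 0 copies, fell the most of the 48. GAA, with 2 copies, had the largest rise among the non-protease enzymes in starved cells, but MCOLN1, also with 2, was not called. Copy number was not tested against the changes.

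The MiT/TFE factors did not move together. TFEB (ENSG00000112561), the factor best known for driving lysosome formation, was a low transcript with no called change. It had 6.12, 3.84 and 6.13 CPM in starved cells with Torin1, against 6.12, 6.51 and 5.87 CPM without it. With Torin1, 1 h fed cells had 4.36, 4.28 and 4.74 CPM and 4 h fed cells 4.69, 4.49 and 5.23 CPM, against 7.15, 4.32 and 5.17 and 4.20, 3.55 and 5.71 CPM without it. The groups with and without Torin1 overlapped in every feeding state. Its log2 fold changes with Torin1 were −0.20 (SE 0.24), −0.31 (SE 0.24) and 0.10 (SE 0.24) in starved cells and after 1 h and 4 h of feeding, with edgeR adjusted p = 0.473, 0.268 and 0.75. TFEC, the remaining member of the family, was at or near 0 and was not tested.

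TFE3 (ENSG00000068323), a close relative with overlapping targets, fell with Torin1 in starved and in 1 h fed cells. It was at 31.6, 27.5 and 32.8 CPM in starved cells with Torin1, against 52.1, 51.7 and 51.4 CPM without it. The 1 h fed libraries had 31.02, 31.9 and 31.2 CPM with Torin1 and 49.5, 52.8 and 49.5 CPM without it. Without Torin1, TFE3 was thus high in starved and 1 h fed libraries, and it was lower in all 3 libraries fed for 4 h. The log2 fold change with Torin1 was −0.76 (SE 0.10, edgeR adjusted p = 4.13e-08) in starved cells and −0.69 (SE 0.10, edgeR adjusted p = 2.19e-07) in 1 h fed cells. At 4 h the libraries had 29.8, 31.97 and 33.9 CPM with Torin1 and 35.8, 34.6 and 34.9 CPM without it, so that the groups barely stood apart, and the log2 fold change was −0.14 (SE 0.10, edgeR adjusted p = 0.226).

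MITF (ENSG00000187098), the melanocyte factor of the family, moved the other way. It had 9.39, 12.2 and 9.29 CPM in starved cells with Torin1, against 3.79, 2.67 and 3.12 CPM without it. In 1 h fed cells it had 13.1, 13.7 and 12.8 CPM with Torin1 and 5.78, 2.29 and 2.85 CPM without. The groups did not overlap in either state, and the log2 fold changes were 1.69 (SE 0.24, edgeR adjusted p = 3.32e-07) and 1.86 (SE 0.23, edgeR adjusted p = 3.41e-08). After 4 h of feeding it had 11.2, 10.9 and 10.1 CPM with Torin1 and 15.2, 16.3 and 11.7 CPM without, with a fold change (log2) of −0.42 (SE 0.21, edgeR adjusted p = 0.08). The 3 untreated libraries fed for 4 h were thus among the highest of all for MITF, and starved and 1 h fed libraries without Torin1 the lowest.

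**Figure D2:**
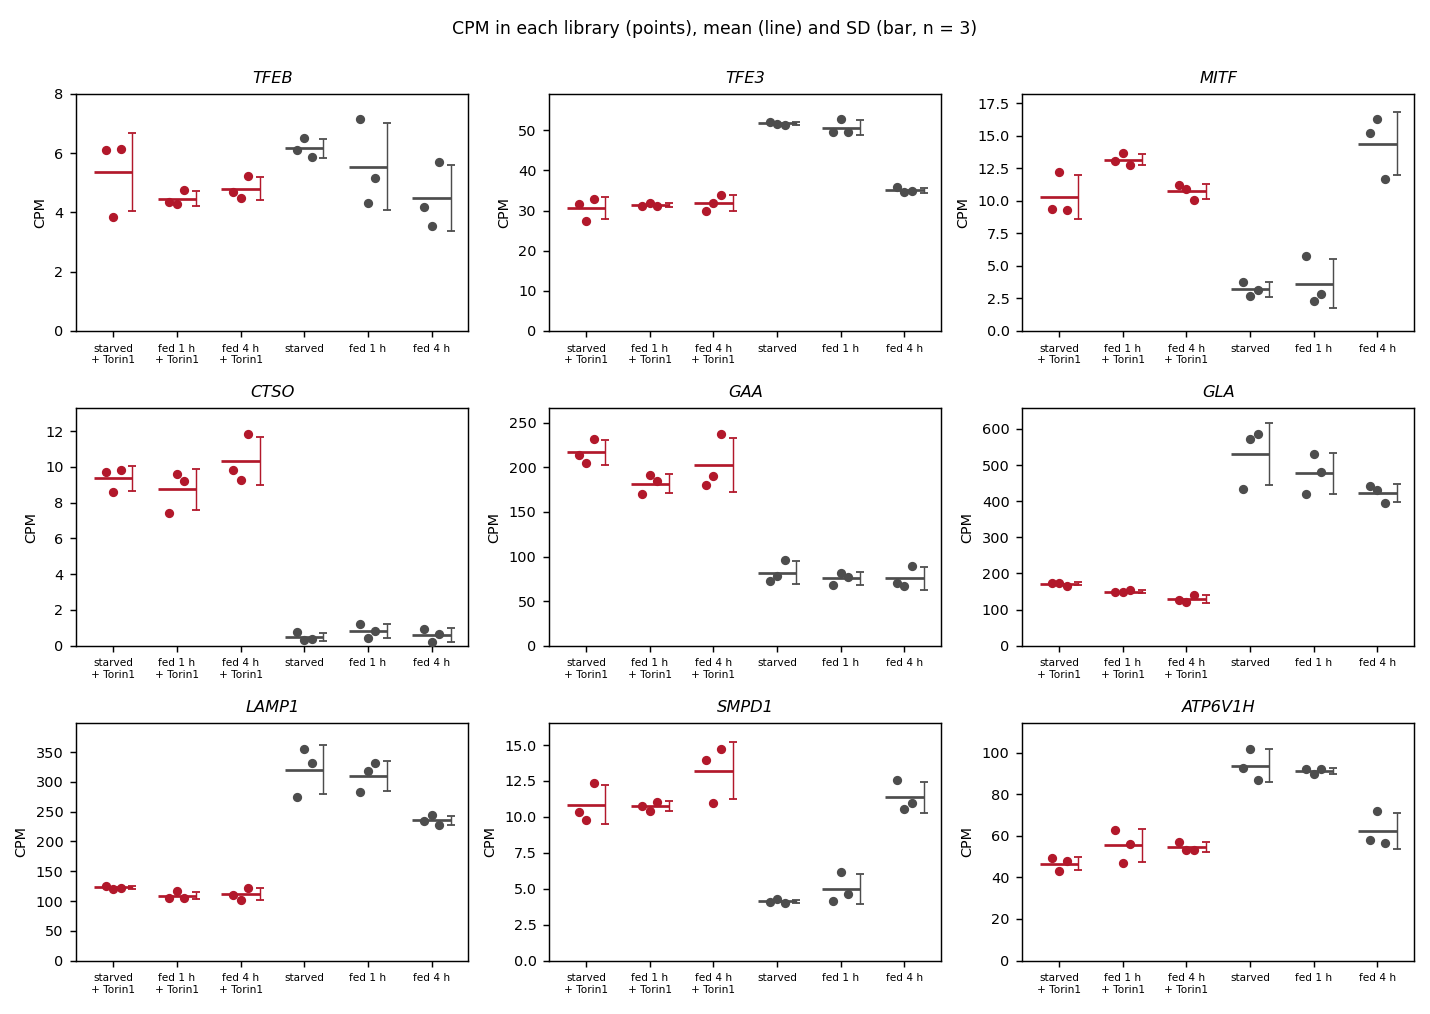
CPM of 9 genes in each library (points), with the mean (line) and SD (bar, n = 3), red with Torin1 and grey without. CTSO and GAA are higher and GLA and LAMP1 lower in every library with Torin1 than in any without, whereas TFE3, MITF, SMPD1 and ATP6V1H in 4 h fed cells without Torin1 lie nearer to the Torin1 libraries than starved cells do.

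Among membrane and lipid transport genes, Torin1 lowered 3 and raised 2 of 7 in starved and in 1 h fed cells, and lowered 2 and raised 2 in 4 h fed cells. Of all genes tested, 29.6% were lower and 33.9% higher in starved cells. The shares were 29.9% and 33.2% in 1 h fed cells, and 28.6% and 27.4% in 4 h fed cells. LAMP1 (ENSG00000185896), a heavily glycosylated protein that lines the lysosomal membrane, fell the most. It had 126, 120.3 and 123 CPM in starved cells with Torin1, against 275, 356 and 331 CPM without it. Fed for 4 h, cells had 110.5, 102 and 122 CPM with Torin1 and 235, 244 and 228 CPM without. Every library with Torin1 was below every library without it. Its log2 fold change with Torin1 was −1.38 (SE 0.09, edgeR adjusted p = 3.09e-14) in starved, −1.51 (SE 0.09, edgeR adjusted p = 5.7e-15) in 1 h fed and −1.08 (SE 0.09, edgeR adjusted p = 1.61e-11) in 4 h fed cells. LAMP2, its paralogue, also needed for chaperone-mediated autophagy, was not called in any Torin1 comparison, with log2 fold changes of −0.06, −0.07 and 0.08.

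CD63 (ENSG00000135404), a tetraspanin of late endosomes and lysosomes, was at 140.5, 118 and 120.5 CPM in starved cells with Torin1, against 209, 239 and 222 CPM without it. These groups did not overlap. The log2 fold change with Torin1 was −0.82 (SE 0.10, edgeR adjusted p = 8.45e-09) in starved, −0.80 (SE 0.10, edgeR adjusted p = 1.63e-08) in 1 h fed and −0.58 (SE 0.10, edgeR adjusted p = 6.35e-06) in 4 h fed cells. The genes for the cholesterol exporters of the lysosome moved in opposite directions. NPC1 (ENSG00000141458), the membrane transporter, had 48.3, 60.7 and 56.8 CPM in starved cells with Torin1 and 80.8, 104 and 84.8 CPM without, with a fold change (log2) of −0.71 (SE 0.11, edgeR adjusted p = 1.95e-06). In 1 h fed cells its log2 fold change was −0.58 (SE 0.11, edgeR adjusted p = 3.83e-05), and in 4 h fed cells, where the groups overlapped, −0.12 (SE 0.11, edgeR adjusted p = 0.35). NPC2, the soluble partner that hands cholesterol to NPC1, rose in all 3 states, by 0.38, 0.45 and 0.63 on the log2 scale. SCARB2, the receptor that carries glucocerebrosidase to lysosomes, rose by 0.60, 0.60 and 0.61. MCOLN1, the calcium channel of the lysosomal membrane, was not called, with log2 fold changes between −0.25 and 0.06, but in starved cells it was called lower with DESeq2 size factors, in the fit of only the groups compared and in the DESeq2 test (adjusted p down to 0.0232). NPC1 and NPC2 each share exonic bases with a gene on the opposite strand, RMC1 and ISCA2.

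Of 8 protease genes, 5 rose with Torin1 in every feeding state (CTSB, CTSF, CTSO, CTSZ and TPP1), where 18.8% of all genes tested did. The median log2 fold change over all 8 was 0.76, 0.71 and 0.77 in starved cells and after 1 h and 4 h of feeding. CTSO (ENSG00000256043), a papain-like cysteine protease, had the largest change of all 48 genes. Its raw counts were 140, 107 and 112 in starved cells with Torin1 and 8, 4 and 4 in starved cells without. That was 9.73, 8.57 and 9.81 CPM with Torin1 and 0.777, 0.334 and 0.367 CPM without it, with a fold change (log2) of 4.25 (SE 0.35, edgeR adjusted p = 7.57e-12). In 1 h fed cells it had 7.43, 9.57 and 9.20 CPM with Torin1 and 1.19, 0.423 and 0.803 CPM without, and the log2 fold change was 3.44 (SE 0.32, edgeR adjusted p = 1.26e-10). At 4 h it had 9.81, 9.29 and 11.8 CPM with Torin1 and 0.962, 0.192 and 0.655 CPM without, and the log2 fold change was 4.05 (SE 0.34, edgeR adjusted p = 1.91e-11). The libraries with Torin1 were at 7.43 CPM or above and those without it at 1.19 CPM or below, and the untreated values rest on 2 to 13 counts a library.

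CTSF (ENSG00000174080), another cysteine cathepsin, had 42.5, 36.02 and 42.6 CPM in starved cells with Torin1, against 13.5, 13.2 and 14.04 CPM without it. The fold change (log2) was 1.57 (SE 0.14, edgeR adjusted p = 2.05e-11) in starved, 1.49 (SE 0.14, edgeR adjusted p = 1.07e-10) in 1 h fed and 1.33 (SE 0.14, edgeR adjusted p = 1.61e-09) in 4 h fed cells. CTSZ (ENSG00000101160), a carboxypeptidase, had 18.6, 11.1 and 15.5 CPM in starved cells with Torin1 and 7.96, 6.26 and 6.05 CPM without. The spread between its Torin1 libraries was wide, but the groups did not overlap, and its log2 fold changes were 1.16 (SE 0.22, edgeR adjusted p = 2.62e-05), 1.25 (SE 0.22, edgeR adjusted p = 9.45e-06) and 1.02 (SE 0.21, edgeR adjusted p = 0.000171). TPP1, a tripeptidyl peptidase whose loss causes a neuronal ceroid lipofuscinosis, rose by 1.15, 0.98 and 1.10 on the log2 scale, and CTSB by 0.36, 0.44 and 0.53. The main aspartic protease went down. CTSD (ENSG00000117984) had 299, 267 and 304 CPM in starved cells with Torin1 and 388, 455 and 404 CPM without, with no overlap. On the log2 scale the change was −0.52 (SE 0.08, edgeR adjusted p = 9.84e-07) in starved, −0.43 (SE 0.08, edgeR adjusted p = 1.62e-05) in 1 h fed and −0.18 (SE 0.08, edgeR adjusted p = 0.0514) in 4 h fed cells. CTSL, a cysteine endopeptidase, did not pass the test in any state, with log2 fold changes of −0.02, −0.01 and 0.10. CTSA, the protective protein of the sialidase and galactosidase complex, overlaps NEURL2 and PLTP on the opposite strand and was called lower in 1 h and in 4 h fed cells. The 4 h call was lost with total-count scaling and without 5 of the 6 libraries compared, all but the third with Torin1 (edgeR adjusted p up to 0.314). In 1 h fed cells it changed on the log2 scale by −0.46 (SE 0.13, edgeR adjusted p = 0.00326).

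Of the 15 other enzymes and activators, 9 were higher and 4 lower with Torin1 in starved cells, 9 and 4 in 1 h fed cells, and 8 and 4 in 4 h fed cells. Of all genes tested, 33.9% were higher and 29.6% lower in starved cells. The shares were 33.2% and 29.9% in 1 h fed cells, and 27.4% and 28.6% in 4 h fed cells. The share of these 15 called lower was thus close to the background. GLA (ENSG00000102393), alpha-galactosidase A, the enzyme missing in Fabry disease, fell the most of the 48 genes. It had 175, 174 and 166 CPM in starved cells with Torin1, against 432, 572 and 587 CPM without it. In 4 h fed cells it had 126, 122 and 141 CPM with Torin1 and 441, 429.6 and 394 CPM without. Every library with Torin1 was below every library without it. The log2 fold change was −1.63 (SE 0.10, edgeR adjusted p = 7.81e-15) in starved, −1.67 (SE 0.10, edgeR adjusted p = 5.57e-15) in 1 h fed and −1.70 (SE 0.10, edgeR adjusted p = 1.5e-14) in 4 h fed cells.

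GAA (ENSG00000171298), the acid alpha-glucosidase that degrades glycogen and is missing in Pompe disease, rose. It had 213, 205 and 232 CPM in starved cells with Torin1 and 72.4, 77.7 and 96.2 CPM without. In 4 h fed cells it had 180.3, 190.5 and 238 CPM with Torin1 and 69.95, 66.8 and 89.7 CPM without. The groups did not overlap in any state, and the log2 fold changes were 1.401 (SE 0.12, edgeR adjusted p = 2.09e-10), 1.26 (SE 0.12, edgeR adjusted p = 1.43e-09) and 1.43 (SE 0.12, edgeR adjusted p = 3.42e-10) in starved cells and after 1 h and 4 h of feeding. SMPD1 (ENSG00000166311), acid sphingomyelinase, had 10.4, 9.77 and 12.4 CPM in starved cells with Torin1 and 4.08, 4.26 and 4.04 CPM without. In 4 h fed cells it had 13.9, 10.96 and 14.8 CPM with Torin1 and 12.6, 10.5 and 10.9 CPM without, and here the groups overlapped. Its log2 fold change was 1.39 (SE 0.19, edgeR adjusted p = 1.95e-07) in starved, 1.10 (SE 0.19, edgeR adjusted p = 5.76e-06) in 1 h fed and 0.22 (SE 0.17, edgeR adjusted p = 0.284) in 4 h fed cells.

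Of the remaining enzymes, heparan sulphate is degraded by SGSH, IDS and NAGLU in sequence with others. SGSH rose by 1.35, 1.27 and 0.85 on the log2 scale in starved cells and after 1 h and 4 h of feeding. IDS rose by 0.78, 1.09 and 0.93, with wide errors (SE 0.22 in starved cells), and shares 676 exonic bases with AC244197.3 on the same strand. GRN, which encodes progranulin, a cofactor of lysosomal enzymes, rose by 0.79, 0.79 and 0.60. Smaller rises were called for GUSB, beta-glucuronidase, at 0.44, 0.45 and 0.54. Calls for GLB1, HEXA, NAGLU and ASAH1, whose log2 fold changes lay between 0.06 and 0.54, were each lost in at least 1 state under other settings or without single libraries, with edgeR adjusted p up to 0.169. Among genes that fell, NEU1, the sialidase, changed by −1.11, −0.98 and −0.59. LIPA, the acid lipase that frees cholesterol from its esters, changed by −0.76, −0.80 and −0.49. PSAP, the precursor of the saposins that present lipids to several of these enzymes, was not called with Torin1. PPT1, palmitoyl-protein thioesterase, changed by −0.22, −0.24 and −0.28, calls that were lost with total-count scaling (edgeR adjusted p = 0.267, 0.091 and 0.127), and it shares 1189 exonic bases with CAP1 on the opposite strand.

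**Figure D3:**
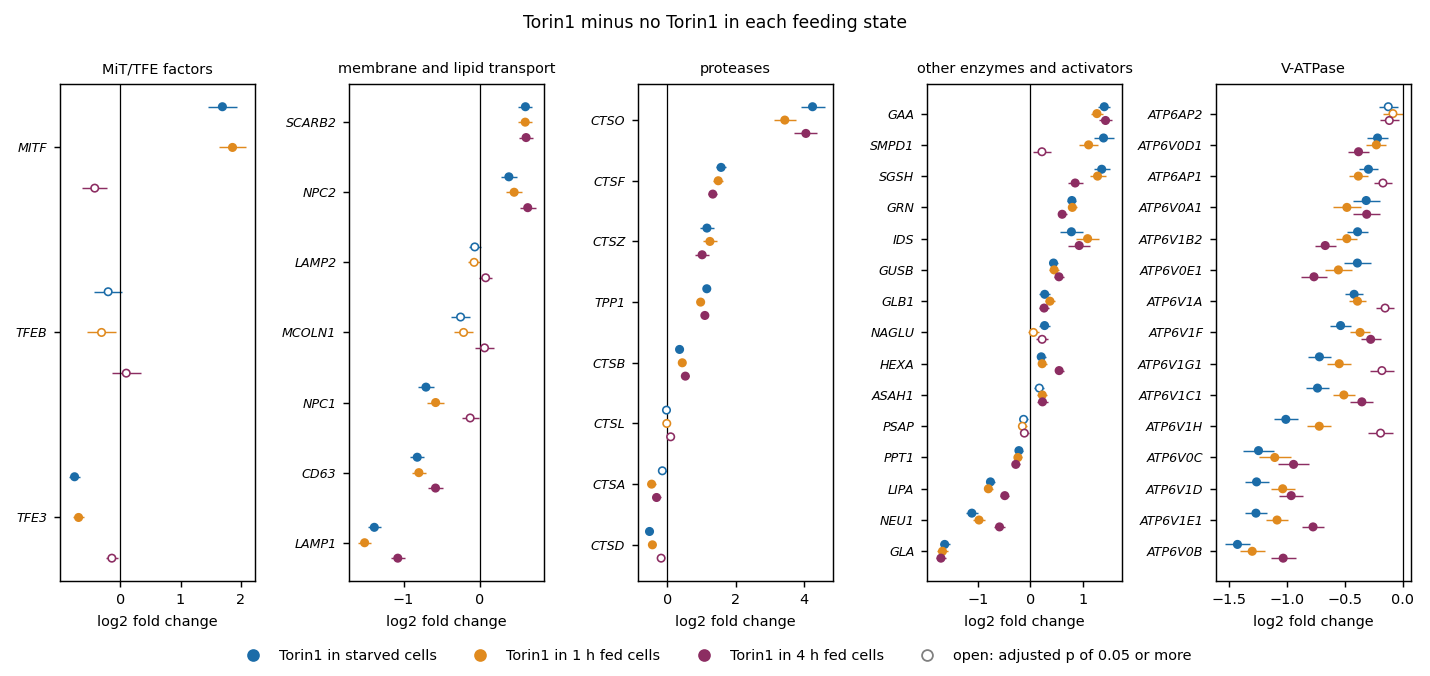
Log2 fold change (Torin1 minus no Torin1) with its SE for each gene by role, in starved (blue), 1 h fed (orange) and 4 h fed cells (purple). Filled points have an edgeR adjusted p under 0.05. All V-ATPase values lie at or below −0.08 with TMM scaling (with total counts ATP6AP2, and ATP6V1A at 4 h, are above 0), while proteases and other enzymes reach both sides of 0.

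Most V-ATPase genes were lower with Torin1. Of 15, 14 were called lower in starved cells, 14 in 1 h fed cells and 10 in 4 h fed cells, and none higher. Of all genes tested, 29.6%, 29.9% and 28.6% were called lower in these states, and 33.9%, 33.2% and 27.4% higher. Every one of the 15 log2 fold changes was negative in each state, the least so being −0.12, −0.08 and −0.12, except for ATP6AP2 in each state and ATP6V1A at 4 h, which turned positive with total-count scaling, and their median was −0.54, −0.51 and −0.35, beside 0.09, 0.06 and 0.02 over all genes tested. Summed over the 15 genes, CPM was 1584, 1431 and 1478 in starved libraries with Torin1 and 2323, 2526 and 2350 in those without. In 4 h fed libraries the sum was 1486, 1384 and 1482 with Torin1 and 2066, 2075 and 1874 without. The sums in Torin1 libraries were alike in all 3 feeding states, while those without Torin1 were lowest after 4 h of feeding.

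The pump has a membrane sector, V0, through which protons pass, and a cytoplasmic sector, V1, which hydrolyses ATP. ATP6V0B (ENSG00000117410), a proteolipid of the proton-carrying ring, had 81.5, 74.6 and 79.8 CPM in starved cells with Torin1, against 194, 222 and 217 CPM without it. The fold change (log2) was −1.42 (SE 0.11, edgeR adjusted p = 3.82e-12) in starved, −1.30 (SE 0.11, edgeR adjusted p = 3.06e-11) in 1 h fed and −1.03 (SE 0.11, edgeR adjusted p = 4.51e-09) in 4 h fed cells. ATP6V0C, the main proteolipid of the ring, changed alike, by −1.24, −1.10 and −0.94. Other V0 genes changed less, with log2 fold changes of −0.31, −0.48 and −0.31 for ATP6V0A1 and −0.22, −0.23 and −0.38 for ATP6V0D1. Those of ATP6V0A1 in starved and 4 h fed cells and of ATP6V0D1 in starved and 1 h fed cells were lost with total-count scaling, with edgeR adjusted p up to 0.396.

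In the V1 sector, ATP6V1E1 and ATP6V1D had the largest falls in each feeding state. ATP6V1E1 (ENSG00000131100), of the peripheral stalk, had 88.7, 73.1 and 74.4 CPM in starved cells with Torin1, against 208, 193 and 168 CPM without it. On the log2 scale the change was −1.27 (SE 0.10, edgeR adjusted p = 2.27e-12) in starved, −1.08 (SE 0.10, edgeR adjusted p = 5.84e-11) in 1 h fed and −0.77 (SE 0.10, edgeR adjusted p = 7.87e-08) in 4 h fed cells. ATP6V1D (ENSG00000100554), of the rotating central stalk, had 35.04, 28.02 and 30.7 CPM in starved cells with Torin1 and 73.5, 77.2 and 74.1 CPM without. It changed by −1.26 (SE 0.10, edgeR adjusted p = 6.94e-12), −1.03 (SE 0.10, edgeR adjusted p = 4.52e-10) and −0.96 (SE 0.10, edgeR adjusted p = 3.3e-09), and shares 253 exonic bases with EIF2S1 on the opposite strand. Groups of both genes did not overlap in any state. ATP6V1A and ATP6V1B2, whose proteins form the catalytic head, had log2 fold changes of −0.42, −0.39 and −0.15, and of −0.39, −0.48 and −0.67, all called except ATP6V1A at 4 h. ATP6V1H (ENSG00000047249), which regulates the joining of the sectors, had 49.3, 42.99 and 47.7 CPM in starved cells with Torin1 and 92.8, 102 and 86.6 CPM without. In 4 h fed cells it had 57.2, 52.98 and 53.1 CPM with Torin1 and 57.8, 72.1 and 56.5 CPM without, and these overlapped. Its log2 fold change was −1.01 (SE 0.10, edgeR adjusted p = 9.07e-10) in starved, −0.72 (SE 0.10, edgeR adjusted p = 4.55e-07) in 1 h fed and −0.19 (SE 0.10, edgeR adjusted p = 0.121) in 4 h fed cells. ATP6AP2, an accessory protein also known as the prorenin receptor, was the V-ATPase gene called in no state.

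Feeding for 1 h changed none of the 48 genes, with or without Torin1. In edgeR at adjusted p under 0.05, 0.481% of all genes tested were higher and 0.164% lower after 1 h without Torin1, and 0.274% and 0.128% with it. At an unadjusted p under 0.05, 7 of the 48 differed without Torin1 and 11 with it, and the fit of only the groups compared called 4 lower with Torin1.

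Feeding for 4 h without Torin1 changed 25 of the 48, with 4 higher and 21 lower than in starved cells, where 23.2% of all genes were higher and 19.1% lower. The 4 that rose were MITF, SGSH, SMPD1 and ATP6V0E1. MITF had 15.2, 16.3 and 11.7 CPM in 4 h fed cells, against 3.79, 2.67 and 3.12 CPM in starved cells, with a fold change (log2) of 2.18 (SE 0.24, edgeR adjusted p = 8.06e-09). SMPD1 had 12.6, 10.5 and 10.9 CPM in 4 h fed and 4.08, 4.26 and 4.04 CPM in starved cells, with a fold change (log2) of 1.46 (SE 0.19, edgeR adjusted p = 2.44e-07). Neither gene's groups overlapped. SGSH rose by 0.67 (SE 0.15, edgeR adjusted p = 0.000738), and the call for ATP6V0E1 (0.28, edgeR adjusted p = 0.0473) was lost in 11 of 13 alternatives, with an adjusted p up to 0.282, among them without any of the 3 starved libraries or without the first or the second 4 h fed library. Among genes that fell, TFE3 changed by −0.56 (SE 0.10, edgeR adjusted p = 1.66e-05) on the log2 scale, CD63 by −0.57 (SE 0.09, edgeR adjusted p = 1.21e-05), LAMP1 by −0.45 (SE 0.09, edgeR adjusted p = 9.5e-05) and CTSD by −0.39 (SE 0.08, edgeR adjusted p = 0.000131). Of 15 V-ATPase genes 9 fell, and ATP6V1H changed by −0.60 (SE 0.10, edgeR adjusted p = 2.18e-05) and ATP6V0B by −0.49 (SE 0.11, edgeR adjusted p = 0.000446). NPC1 changed by −0.37 (SE 0.11, edgeR adjusted p = 0.0079), a call that was lost without starved library 2 or 4 h fed library 3 (adjusted p up to 0.0965). This comparison and that of Torin1 in starved cells share the 3 starved libraries.

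Feeding for 4 h with Torin1 present changed 1 of the 48. GLA had 126, 122 and 141 CPM in 4 h fed cells with Torin1, against 175, 174 and 166 CPM in starved cells with Torin1, and the groups did not overlap. The log2 fold change was −0.40 (SE 0.10, edgeR adjusted p = 0.021), where 0.829% of all genes were higher and 0.975% lower. The call was lost without any of the 3 starved libraries with Torin1 and without the first or the second 4 h fed library with Torin1, with an adjusted p up to 0.144. At an unadjusted p under 0.05, 9 of the 48 differed in this comparison.

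Whether feeding altered the effect of Torin1 was tested as an interaction, the Torin1 log2 fold change in fed cells minus that in starved cells. At 1 h none of the 48 passed, in edgeR at adjusted p under 0.05, where 0.0122% of all genes were higher and 0.0548% lower, and at an unadjusted p under 0.05 the count was 0 as well. At 4 h, 9 genes were higher and 2 lower, where 9.74% of all genes were higher and 16.0% lower. The 2 with a negative difference were MITF, at −2.12 (SE 0.32, edgeR adjusted p = 5.3e-06), and SMPD1, at −1.17 (SE 0.26, edgeR adjusted p = 0.000788). Both were raised by Torin1 in starved cells and not called with Torin1 after 4 h of feeding. The 9 with a positive difference were TFE3, NPC1, CTSD, HEXA, NEU1, ATP6V1C1, ATP6V1E1, ATP6V1G1 and ATP6V1H. Except HEXA, all of these were lower with Torin1 in starved cells and closer to 0 in 4 h fed cells. ATP6V1H had the largest difference, 0.82 (SE 0.15, edgeR adjusted p = 8.36e-05), and TFE3 had 0.62 (SE 0.14, edgeR adjusted p = 0.000805). CTSO, GLA and GAA were not called, with differences of −0.19 (SE 0.55), −0.07 (SE 0.13) and 0.02 (SE 0.17).

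**Figure D4:**
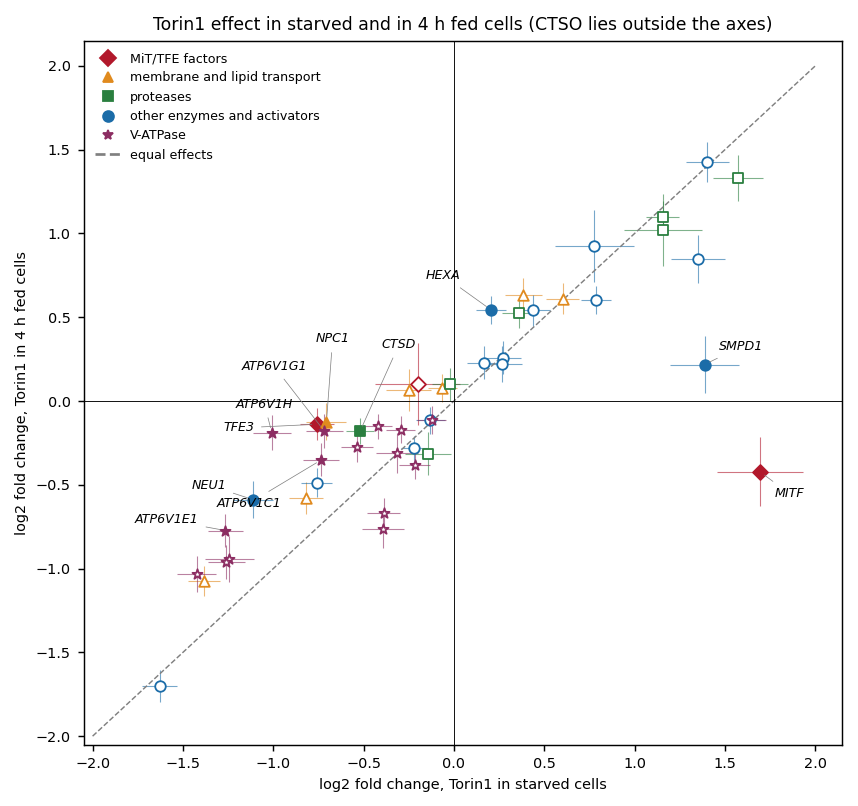
Log2 fold change of Torin1 in starved cells (x axis) and in 4 h fed cells (y axis) with SE for 47 genes, CTSO being outside the axes at 4.25 and 4.05. Filled points are the 11 genes whose effects differed (edgeR interaction, adjusted p under 0.05), MITF and SMPD1 lying below the dashed line of equal effects and the other 9 above it.

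The mix of transcripts was tested for 44 of the 48 genes with at least 2 isoforms in GENCODE 29 that had enough counts. Torin1 changed isoform use in 8 of them in starved cells, 10 in 1 h fed cells and 8 in 4 h fed cells (edgeR gene-level F test of diffSpliceDGE, adjusted p under 0.05), against 15.2%, 16.2% and 11.3% of 10700 genes tested. PPT1, ATP6V0D1 and ATP6V1H were called in all 3 states. Shares of isoforms are estimates by RSEM from short reads and can jump between similar transcripts.

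The protein-coding transcript PPT1-219 made up 48.5, 46.7 and 47.3% of PPT1 counts in starved cells with Torin1, against 93.7, 87.7 and 81.5% without it. In 4 h fed cells it was 56.4 ± 4.56% with Torin1 and 80.4 ± 5.66% without (SD, n = 3). PPT1-217, annotated as a target of nonsense-mediated decay, held 15.8 ± 11.9% in starved cells with Torin1 and 0.319 ± 0.552% without. The main coding form was lower in every Torin1 library than in any other, and edgeR's adjusted p was 0.000443, 2.91e-08 and 0.0273 in starved cells and after 1 h and 4 h of feeding. For ATP6V1H, the coding transcript ATP6V1H-201 held 7.28 ± 5.48% in starved cells with Torin1 and 32.3 ± 3.16% without, and the coding ATP6V1H-202 47.4 ± 4.73% with Torin1 and 25.7 ± 2.83% without. These shares kept apart in starved cells, and the adjusted p was 0.00089, 0.00385 and 0.0247. ATP6V0D1-211, a minor coding transcript, was at 0 in all 9 libraries with Torin1 and held 3.88 ± 1.08% in starved cells without. The 4 h call for ATP6V0D1 was kept in all alternatives. That for PPT1 was lost with the Simes test and without 5 of the 6 libraries compared, all but the first untreated library (adjusted p up to 0.254), and that for ATP6V1H with the Simes test, with a replicate block, without the 3 libraries high in fibroblast markers and without 5 of the 6, all but the second untreated library (up to 0.34). The starved call for ATP6V0D1 was lost without the second Torin1 library (0.0572).

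The coding transcript SGSH-201 held 49.3, 32.8 and 52.1% of SGSH counts in 1 h fed cells with Torin1, against 12.7, 0 and 0% without it (edgeR adjusted p = 0.0125, up to 0.145 in the alternatives, lost without untreated library 2 or 3 or Torin1 library 3, and without the 3 libraries high in fibroblast markers). Untreated libraries varied widely, and the remainder was mostly SGSH-213, an intron-retaining transcript, and SGSH-210, a nonsense-mediated decay target. LAMP2, whose total did not pass the Torin1 tests, had 69.6 ± 1.52% as LAMP2-202 in 1 h fed cells with Torin1 and 56.4 ± 2.04% without (edgeR adjusted p = 0.0449, and 0.0569 to 0.361 when any 1 of the 6 libraries was left out). MITF was called in starved and in 4 h fed cells, but MITF-204 held 98.5, 90.8 and 84.9% in starved cells with Torin1 and 0% in all 3 without, and 0% in all 3 libraries fed for 4 h with Torin1 and 83.9, 92.9 and 87.1% without. MITF-218 held 95.3 ± 6.42% in 4 h fed cells with Torin1 and 0% in all 3 starved libraries with Torin1, so that the forms exchanged between groups of the same treatment. The starved call was lost with the Simes test (0.0814). GAA was called in 1 h fed cells, where GAA-201 held 24.2, 11.9 and 22.02% with Torin1 and 0, 0 and 3.68% without (edgeR adjusted p = 1.03e-05). CTSB was called in starved cells, where CTSB-204 held 14.1 ± 8.56% with Torin1 and 55.5 ± 10.6% without (edgeR adjusted p = 0.0011). The other genes called in at least 1 state were ATP6V0E1, ATP6V1A, ATP6V1E1, CTSD, GLA, LIPA, NPC1, PSAP and SCARB2, and each of these calls was lost in at least 1 alternative.

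**Figure D5:**
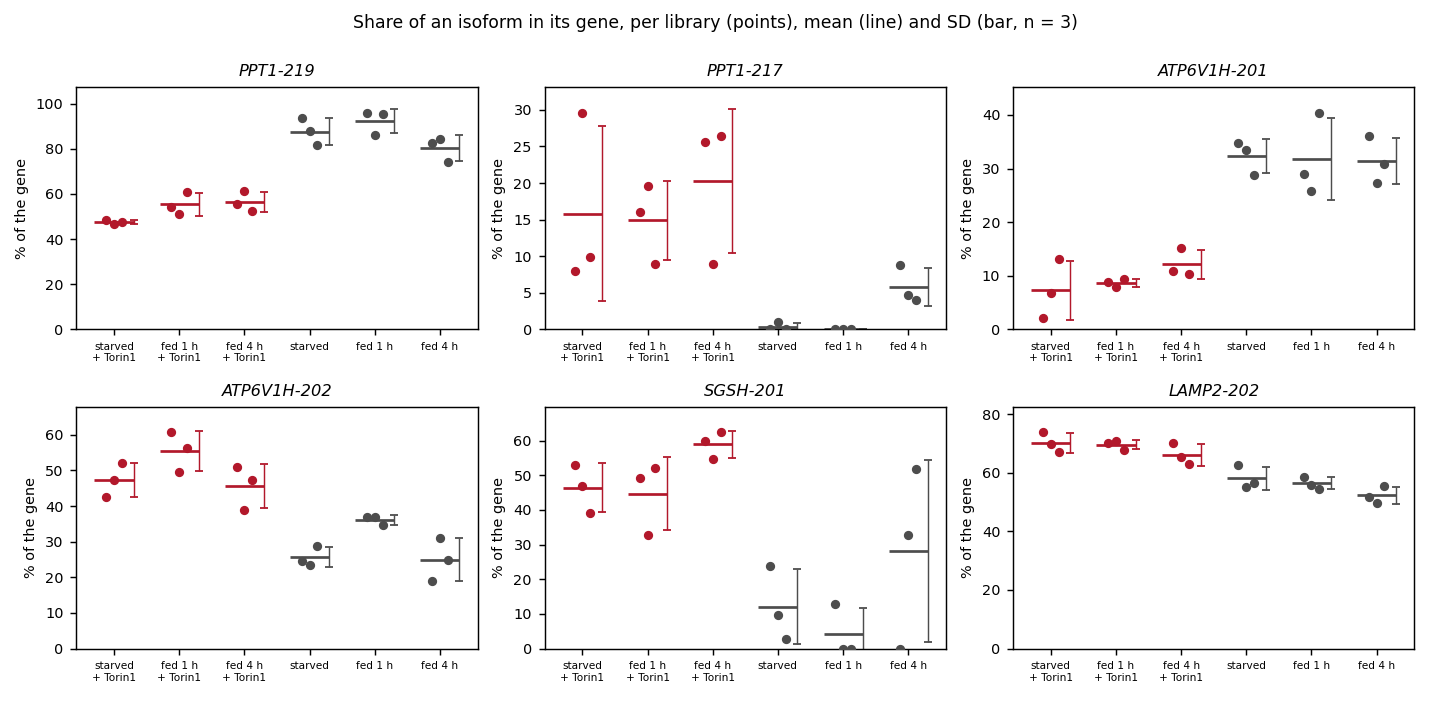
Share (%) of 6 transcripts in the counts of their gene in each library (points), with the mean (line) and SD (bar, n = 3), red with Torin1 and grey without. PPT1-219 and ATP6V1H-201 are lower and ATP6V1H-202 and LAMP2-202 higher in the Torin1 libraries of each feeding state. LAMP2 was called for isoform use in 1 h fed cells only (edgeR gene-level F test, adjusted p = 0.0449). It was not called in starved (0.178) or 4 h fed cells (0.127).

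Other genes of the pathway were taken from lists, which were chosen with earlier results of these data known. For the counts that follow, 33.9% of all genes tested were called higher and 29.6% lower with Torin1 in starved cells. The shares were 33.2% and 29.9% in 1 h fed cells, and 27.4% and 28.6% in 4 h fed cells. Of 35 further lysosomal genes, 34 were tested, and with Torin1 13 were higher and 13 lower in starved cells, 11 and 10 in 1 h fed cells, and 13 and 6 in 4 h fed cells. Among those with a mean of at least 1 CPM, the largest called change was in HGSNAT, the acetyltransferase of heparan sulphate breakdown. It had 53.3, 53.6 and 66.8 CPM in starved cells with Torin1, against 6.50, 4.67 and 5.69 CPM without it, with a fold change (log2) of 3.37 (SE 0.14, edgeR adjusted p = 3.54e-18). Its groups did not overlap in any feeding state. The fitted fall of CTSS, cathepsin S, a gene below that level named after its values were seen, was larger in starved and 1 h fed cells, but rests on 2, 0 and 0 counts in starved cells with Torin1, against 10, 16 and 9 without. Of 7 genes for delivery of enzymes to lysosomes, 3 were higher and 3 lower in starved cells, 2 and 4 in 1 h fed cells, and 3 and 1 in 4 h fed cells. Among these, SUMF1, which activates sulphatases, rose by 1.81 (SE 0.20, edgeR adjusted p = 4.11e-09), and the mannose 6-phosphate receptor genes M6PR and IGF2R fell by 0.51 and 0.45 on the log2 scale in starved cells, both named after their values were seen. In 4 h fed cells IGF2R went the other way, with 164.7, 186.6 and 212.5 CPM with Torin1 and 151.9, 158.7 and 155.8 CPM without. M6PR stayed lower there, with 77.45, 66.99 and 73.71 CPM with Torin1 and 120, 112 and 107 CPM without. Of 9 V-ATPase genes outside the 15, 6 were tested, and 2 were higher and 2 lower in starved cells, 3 and 2 in 1 h fed cells, and 2 and 1 in 4 h fed cells. ATP6V1G2, a neuronal isoform of the peripheral stalk, had 4.10, 4.48 and 6.05 CPM in starved cells with Torin1 and 1.75, 1.08 and 0.734 CPM without, with a fold change (log2) of 2.03 (SE 0.39, edgeR adjusted p = 4.43e-05), while its ubiquitous counterpart ATP6V1G1 changed by −0.72.

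Of 13 genes in a list on TFEB control, which also held TFEC, the 12 other than TFEC were tested, and with Torin1 2 were higher and 6 lower in starved cells, and 2 and 7 in each fed state. Of all genes tested, 33.9% were higher and 29.6% lower in starved cells. In 1 h fed cells 33.2% and 29.9% were, and in 4 h fed cells 27.4% and 28.6%. PPP3CA, a catalytic subunit of the phosphatase calcineurin, which dephosphorylates TFEB, had 44.4, 43.7 and 44.1 CPM in starved cells with Torin1 and 82.2, 79.1 and 74.7 CPM without, with a fold change (log2) of −0.84 (SE 0.11, edgeR adjusted p = 5.66e-08). PPP3CB, the gene of another catalytic subunit of calcineurin, went the other way and is named after its values were seen. It had 35.2, 41.7 and 36.4 CPM in starved cells with Torin1, against 22.4, 19.9 and 22.8 CPM without it, with a rise of 0.80 (SE 0.11, edgeR adjusted p = 2.88e-07) on the log2 scale. YWHAB, a 14-3-3 protein, changed the most in 4 h fed cells, by −0.84 (SE 0.09, edgeR adjusted p = 1.61e-09). Of 10 autophagy-related genes with reported CLEAR elements, 1 was higher and 6 lower in starved cells, 3 and 5 in 1 h fed cells, and 3 and 5 in 4 h fed cells. GABARAPL1, an autophagosome protein of the ATG8 family, had 21.9, 19.5 and 16.9 CPM in starved cells with Torin1, against 80.9, 95.8 and 77.9 CPM without it. The fold change (log2) was −2.12 (SE 0.17, edgeR adjusted p = 7.44e-10) in starved cells. MAP1LC3B, the LC3 gene of the same family, changed the most in 4 h fed cells, by −1.005 (SE 0.12, edgeR adjusted p = 3.24e-07). Both were lower in every library with Torin1 than in any without.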

How the data were processed

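RNA of 18 HEK-293E libraries was sequenced after TRIzol and Direct-zol extraction and DNase I treatment, and STAR aligned the reads in 2 passes, per the labels' protocols. The submitters' processing notes also name RSEM and DESeq2, with no version. Although the gene identifiers are human Ensembl IDs, the build those protocols give is one of C. elegans, so that neither the human build nor its annotation release is known from the sources used. The deposited gene table holds expected counts, not normalised, for which the submitters' processing notes name RSEM, and 3.32% of its values were not whole. The second deposited table has the same kind of estimated counts for transcripts.

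Counts were rounded and genes kept by filterByExpr (minimum count 10), which left 16414 genes. They were scaled by TMM and fitted with edgeR 4.0.16 (R 4.3.3) as 6 group means over 18 libraries, with robust quasi-likelihood F tests and Benjamini-Hochberg adjustment over all genes tested. A gene was called at an adjusted p under 0.05. Isoform use was tested with diffSpliceDGE on 48663 isoforms of 10700 genes in GENCODE 29. Depth was 10510689 to 13690035 counts a library. The tests were tried on simulated counts. Alternatives tried were the Wald test of DESeq2 1.42.0, its size factors, total counts, no filter, only the groups compared, a replicate block and each library left out in turn. A fit without 3 libraries high in fibroblast markers was added once the data had been seen. For isoforms the Simes test and a mean of at least 10 counts were also tried.

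The genes, lists and tests were chosen with earlier results of these data known. Values in full are given for TFEB, TFE3, MITF and CTSO, for the 3 largest called Torin1 changes of each other role (mean of at least 1 CPM) and for the smallest interaction p at 4 h of each role. Genes of other lists are named where they had the largest called Torin1 change of their list in a feeding state, and isoforms for genes called for isoform use. Other genes are given by fold change, range or count. Symbols came from a table of gene names that matched 60295 of 60623 IDs.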

Additional observations from a re-analysis of the deposited data

Results flagged for a closer look

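In 11 of the 48 genes the Torin1 effect in 4 h fed cells differed from that in starved cells by the edgeR interaction test. The difference of log2 fold changes was −2.12 for MITF and −1.17 for SMPD1. It was 0.62 for TFE3, 0.58 for NPC1, 0.34 for CTSD, 0.34 for HEXA and 0.52 for NEU1. Among V-ATPase genes it was 0.38 for ATP6V1C1, 0.49 for ATP6V1E1, 0.54 for ATP6V1G1 and 0.82 for ATP6V1H. The calls for MITF, SMPD1, TFE3, NPC1, ATP6V1E1, ATP6V1G1 and ATP6V1H were kept in all 19 alternatives run for each. That for NEU1 was lost without 4 h fed library 3 (edgeR adjusted p = 0.051). CTSD lost its call without starved library 2, 4 h fed library 3, starved Torin1 library 2 or 4 h fed Torin1 library 3 (adjusted p up to 0.0963). HEXA lost it in 9 alternatives (up to 0.0836), namely with no filter, without the 3 libraries high in fibroblast markers and without starved library 2, 4 h fed library 2 or 3, starved Torin1 library 2 or 3, or 4 h fed Torin1 library 1 or 3. ATP6V1C1 lost it in 9 (up to 0.183), without the 3 libraries high in fibroblast markers and without any of the 3 starved libraries, 4 h fed library 3, starved Torin1 library 2 or 3, or 4 h fed Torin1 library 1 or 2.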

How the results depend on the processing

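Of 150 calls of the 48 genes over the 9 comparisons, 120 were kept in every alternative, and none changed sign in any. With total-count scaling the Torin1 median over all genes shifted (log2) by 0.14 in starved cells, 0.11 at 1 h and 0.16 at 4 h of feeding, and changes are relative to that shift. The counts of genes called for Torin1 and for 4 h of feeding without it stayed within 1.5 times under all alternatives. For 1 h feeding with Torin1, fitting only the groups compared called 4 lower, against 0 in the fit of all groups. For 4 h feeding with Torin1, the count lower was 2 with no filter, the replicate block, only the groups compared or the DESeq2 test, and 0 to 1 when single libraries were left out. Without single libraries the count of interactions lower at 4 h was 2 to 4. The Simes test called isoform use in 4 genes in 1 h fed and 2 in 4 h fed cells, and the replicate block in 5 in 4 h fed cells. Leaving out single libraries gave 4 to 8 in starved, 5 to 7 in 1 h fed and 2 to 8 in 4 h fed cells. Without the 3 libraries high in fibroblast markers, chosen after seeing the data, isoform use was called in 5 genes in 1 h fed and 4 in 4 h fed cells, and the other counts stayed within 1.5 times. The cause was not tested. Libraries with the same replicate number deviated together with correlations of −0.108 to 0.162 (median 0.0383), so the numbers were not taken to pair samples. Of 835 values of named genes under alternatives, 824 kept their call and 11 lost it. Only called results entered this count, and most named genes were chosen for large called changes or a small interaction p. That choice favours kept calls, so the count does not speak for all 48 genes. A count of 0 allows up to 0.219 to 0.285 CPM in a library, a limit reckoned without TMM factors that covers counting error only.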
